A study of Mus musculus with 9 samples.

Results

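The 39 genes described here are genes of NF-κB driven inflammation, taken by name from the platform's annotation of mouse arrays. They comprise cytokines, the NF-κB subunits, the IκB proteins and other feedback inhibitors, signalling and survival genes, and adhesion, effector and acute phase genes. Of the 39, 38 had a probe set with a single symbol and belong to the 17097 genes measured, and Nfkb1 was not analysed here. The cells were primary microglia cultured from the cortices of newborn (P0-P2) C57BL/6J mice. They were kept for 6 h in glioma-conditioned medium (GCM) from LN18 cells (GCM LN18, 3 arrays) or from U87-MG cells (GCM U87-MG, 3 arrays), or were left unstimulated (control, 3 arrays). LN18 and U87-MG are established human glioblastoma lines, so that mouse cells were kept in medium conditioned by human cells. All groups were cultured in DMEM with serum. The submitters describe the replicates as separate cortical cultures, and whether the control dishes received fresh medium at the start of the 6 h is not given in the sources used here.

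NF-κB is a family of dimeric transcription factors built from the subunits RelA, c-Rel, RelB, p50 (made from the product of Nfkb1) and p52 (made from that of Nfkb2). In resting cells the dimers are held in the cytoplasm by IκB proteins. Toll-like receptors and the receptors of TNF and IL-1 activate the IκB kinase complex, which marks IκB for degradation and frees the dimers to enter the nucleus. Among the genes they switch on are inflammatory cytokines and also the inhibitors that end the response, such as IκBα and A20. Microglia use the pathway to respond to bacterial products and tissue damage.

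A match to the sequence these dimers bind, the κB element, stands close to the start of several of the genes. In RefSeq promoter windows of 300 bases (build GRCm38.p6, 250 bases before and 50 after the start of a gene), the textbook κB consensus of 10 bases was sought by name on both strands. A window was given for 30 of the 39 genes, and 11 of these (36.7%) held a match, as did 1388 (5.14%) of 27025 genes with a window. The genes were listed as NF-κB driven beforehand, so these shares are a description and no test. The 11 were Il6, Nfkb2, Rel, Nfkbia, Bcl3, Tnfaip3, Tnip1, Ier3, Nlrp3, Sod2 and Ptx3. For 7 of them, 1 or more from each role in which a match was found, 1 match is printed below. Nfkb2, Rel, Tnfaip3 and Tnip1 had further matches that are not shown. The sequences run 5′ to 3′ on the strand of the gene. The match is in capitals, with up to 10 bases on either side and none beyond the start of the transcript.
Il6, chr5:30013060-30013089 (+): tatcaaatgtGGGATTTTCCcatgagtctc
Nfkb2, chr19:46304688-46304717 (+): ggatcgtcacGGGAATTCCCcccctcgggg
Rel, chr11:23771042-23771071 (-): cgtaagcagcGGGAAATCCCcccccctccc
Nfkbia, chr12:55492657-55492686 (-): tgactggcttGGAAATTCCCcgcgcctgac
Tnfaip3, chr10:19015411-19015432 (-): aatttccatcGGAAATCCCCct
Tnip1, chr11:54962978-54963007 (-): tccatcatggGGGAATTCCCctcctgcctc
Sod2, chr17:13007746-13007775 (+): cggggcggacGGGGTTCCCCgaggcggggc
Counted from the first base of the transcript, the last base of the printed match lies at position -30 in Nfkb2, -20 in Nfkbia, -3 in Tnfaip3 and -35 in Il6. A match is a run of letters in this window and not a measured binding site, and the windows of Tnf, Tnfaip2, Il18 and Birc3 held none.

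Values are log2 signals of probe sets as deposited, with array medians of 3.39 to 3.41. For 100% of the probe sets the 3 replicate numbers have the same mean over the groups (within 1e-06), so differences between the replicate numbers common to the 3 groups are no longer in the values. The replicate number was therefore a block in the linear model of limma, the SDs given below leave those differences out, and differences within a replicate number are not touched. The microglial identity of the cultures was checked against 11 markers, of which 9 had a signal at or above the median gene (4.34), among them Tyrobp (11.9), C1qa (11.3) and Cx3cr1 (10.9). P2ry12 (3.65) and Tmem119 (4.28), which cultured microglia are known to lose, lay below it in the mean of the 9 arrays. On the GCM LN18 arrays Tmem119 lay above it, at 4.77, 4.96 and 4.65, against 4.12, 3.64 and 3.88 in control. The summed linear signal of the 11 markers was 13466 to 13955 in control. It was 15659 to 15905 in GCM LN18 and 15178 to 15859 in GCM U87-MG. The markers did not move alike. Cx3cr1 had the largest log2 difference from control, at 0.97 with LN18 medium and 0.78 with U87-MG medium. Its adjusted p from limma was 0.00827 and 0.0499. Tmem119 followed with LN18 medium, at 0.91 (adjusted p = 0.0390), and stood at 0.30 with U87-MG medium (adjusted p = 0.604). No other marker had an adjusted p under 0.05 with either medium. Itgam differed by 0.43 and 0.41, P2ry12 by 0.37 and 0.27, Fcrls by 0.25 and 0.41 and Aif1 by 0.33 and 0.12. For Tyrobp the difference was 0.01 and 0.02, for Trem2 0.01 and 0.05, and for Ptprc -0.04 and -0.00. Of the 11 markers, 10 lay above 0 in each medium (medians 0.25 and 0.19). At an unadjusted p under 0.05, 7 were higher with LN18 medium and 3 with U87-MG medium, and 0 were lower. The part of the summed signal in the differences below was not tested. The median gene was reached by 1 of 8 astrocyte markers, 1 of 6 of the oligodendrocyte lineage, 0 of 7 of neurons, 1 of 7 of fibroblasts and 0 of 7 of neutrophils. It was also reached by 2 of 6 endothelial markers, by 3 of 6 of border macrophages and by 1 of 4 of monocytes and dendritic cells (Itgax, 7.93). The border macrophage markers above it included Ms4a7 (10.9) and Mrc1 (9.07). As these are bulk RNA samples, fewer cells of a type and less RNA per cell cannot be told apart.

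The signals fell into a measurable and a dim part. Of the 38 genes, 24 lay at or above the median gene and 14 below it. All 4 measured NF-κB subunits, 7 of 8 IκB and feedback genes, 4 of 5 signalling genes and 6 of 11 effector genes were in the upper part, but only 3 of 10 cytokines were. These 3 were Tnf, Il1b and Il18. The other 7 cytokines, Il6 (mean of 9 arrays 2.19), Il12a (2.42), Il1a (2.44), Il12b (2.47), Il10 (2.92), Il23a (3.15) and Lif (3.62), had a mean below the median gene in every group, and so had the effector genes Lcn2 (2.18), Nos2 (3.12), Ptx3 (3.46) and Vcam1 (3.87), the adaptor gene Traf1 (3.14) and the RNase gene Zc3h12a (4.03). The effector gene Marco (4.15) was below it in GCM LN18 (mean 4.29) and GCM U87-MG (3.67) but not in control (4.49). Signals of different probe sets depend on the probes and are not ranked against each other, and a dim signal does not show that a transcript is absent. For the dim genes a small change may not be detectable on these arrays.

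**Figure D1:**
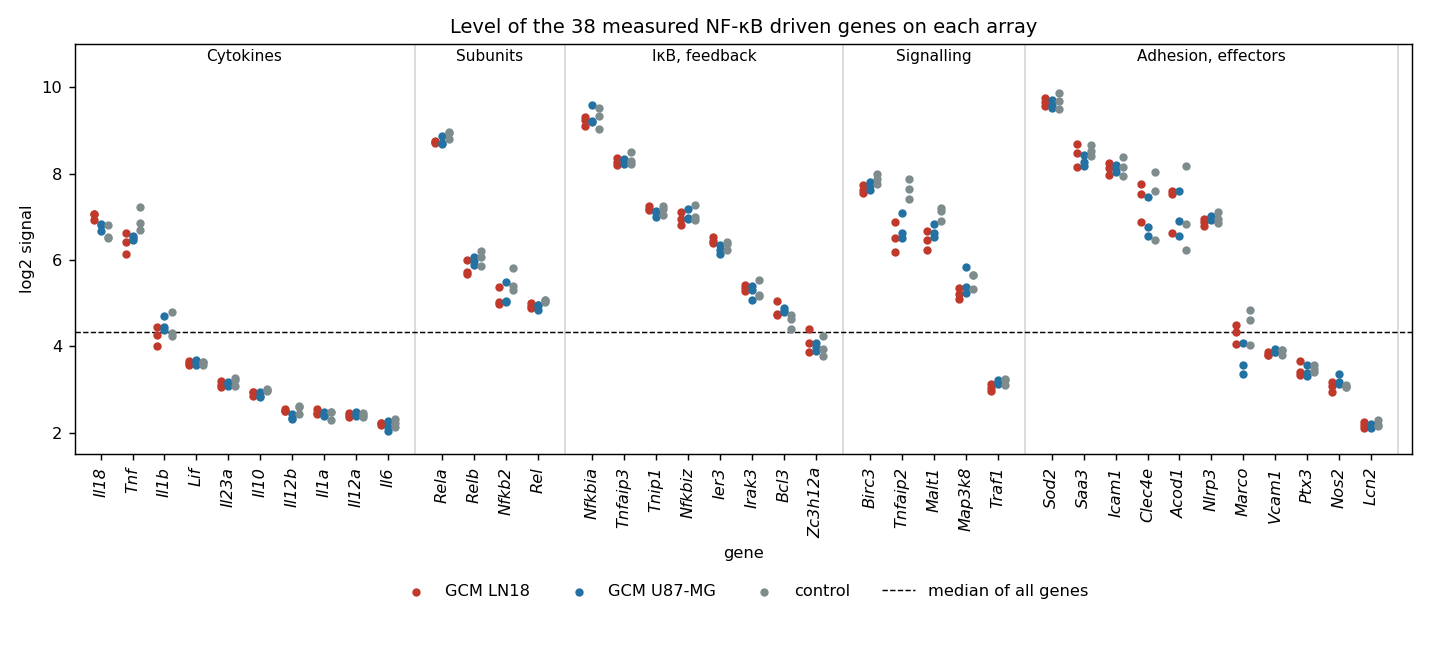
Log2 signal of the 38 genes on each of the 9 arrays, ordered by role, with GCM LN18, GCM U87-MG and control side by side and the median gene (4.34) as a line. The 3 groups lie on top of each other for most genes, and 14 genes, 7 of them cytokines, lie below the line in the mean of the 9 arrays.

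No gene of the set passed the test in either medium, and the largest differences were decreases, led by Tnfaip2 in each medium and followed by Malt1 in GCM LN18 and by Marco in GCM U87-MG. In GCM LN18, 0 of 38 were higher and 0 lower than in control at a Benjamini-Hochberg adjusted p under 0.05 from limma, where 0.538% of all genes were called higher and 0.339% lower. At an unadjusted p under 0.05, 1 gene (Il18) was higher and 4 (Birc3, Malt1, Tnf and Tnfaip2) were lower, with backgrounds of 5.68% and 6.55%. Without the replicate block Il18 was called higher and Malt1 and Tnfaip2 lower (background 2.59% and 2.64%). That fit counts 6 residual degrees of freedom where the values hold 4, so its p-values, here and below, are too small. In GCM U87-MG, 0 of 38 were called higher (background 0.0468%) and 0 lower (0 of 17097 genes) by limma, also without the block, where 0.807% and 0.708% of all genes were called. At an unadjusted p under 0.05, 0 were higher and 5 (Il12b, Malt1, Marco, Tnf and Tnfaip2) were lower, with backgrounds of 4.36% and 4.76%. The mean of both media against control gave 0 calls in limma (background 0.509% higher and 0.304% lower), and without the block 0 higher (background 2.34%) and 2 lower, Malt1 and Tnfaip2 (background 2.47%). At an unadjusted p under 0.05 it gave 2 higher (Bcl3 and Il18) and 7 lower (Birc3, Malt1, Marco, Rel, Rela, Tnf and Tnfaip2), where 5.87% and 6.56% of all genes passed.

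By position of the arrays, 7 genes (18.4%) lay lower on every GCM LN18 array than on every control array, against 12.8% of all genes. They were Birc3, Il10, Malt1, Rel, Rela, Tnf and Tnfaip2. The positions too are those of values without the differences between replicate numbers common to the groups. Only Il18 lay higher on every array, against 11.1% of all genes. In GCM U87-MG 6 genes lay lower (15.8%, background 10.3%), namely Il10, Il12b, Malt1, Rel, Tnf and Tnfaip2, and Bcl3 and Nos2 lay higher (background 8.79%). On all 6 GCM arrays, 5 genes lay below all 3 controls (13.2%, background 5.29%), namely Il10, Malt1, Rel, Tnf and Tnfaip2, and 0 lay above them (background 4.51%). Across all genes, those at or above the median gene had arrays apart more often. At or above the median gene, 6 of 24 genes of the set (25%) lay below every control array in GCM LN18, against 16.9% of all 8549 such genes, and 4 of 24 (16.7%) had an unadjusted p under 0.05 and were lower, against 10.5%. In GCM U87-MG 4 of 24 (16.7%) lay below every control array, against 11.2%. On all 6 GCM arrays it was also 4 of 24 (16.7%), against 7.43%. The dim genes Il10 and Il12b are not among these. The median log2 difference over the 38 genes was -0.060 in GCM LN18, with 29 below 0, and -0.061 in GCM U87-MG, with 28 below 0. The medians over all genes were -0.0037 and -0.0026. The 11 genes with a κB match had medians of -0.019 and -0.068, and the 19 with a window and no match had -0.037 and -0.064.

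**Figure D2:**
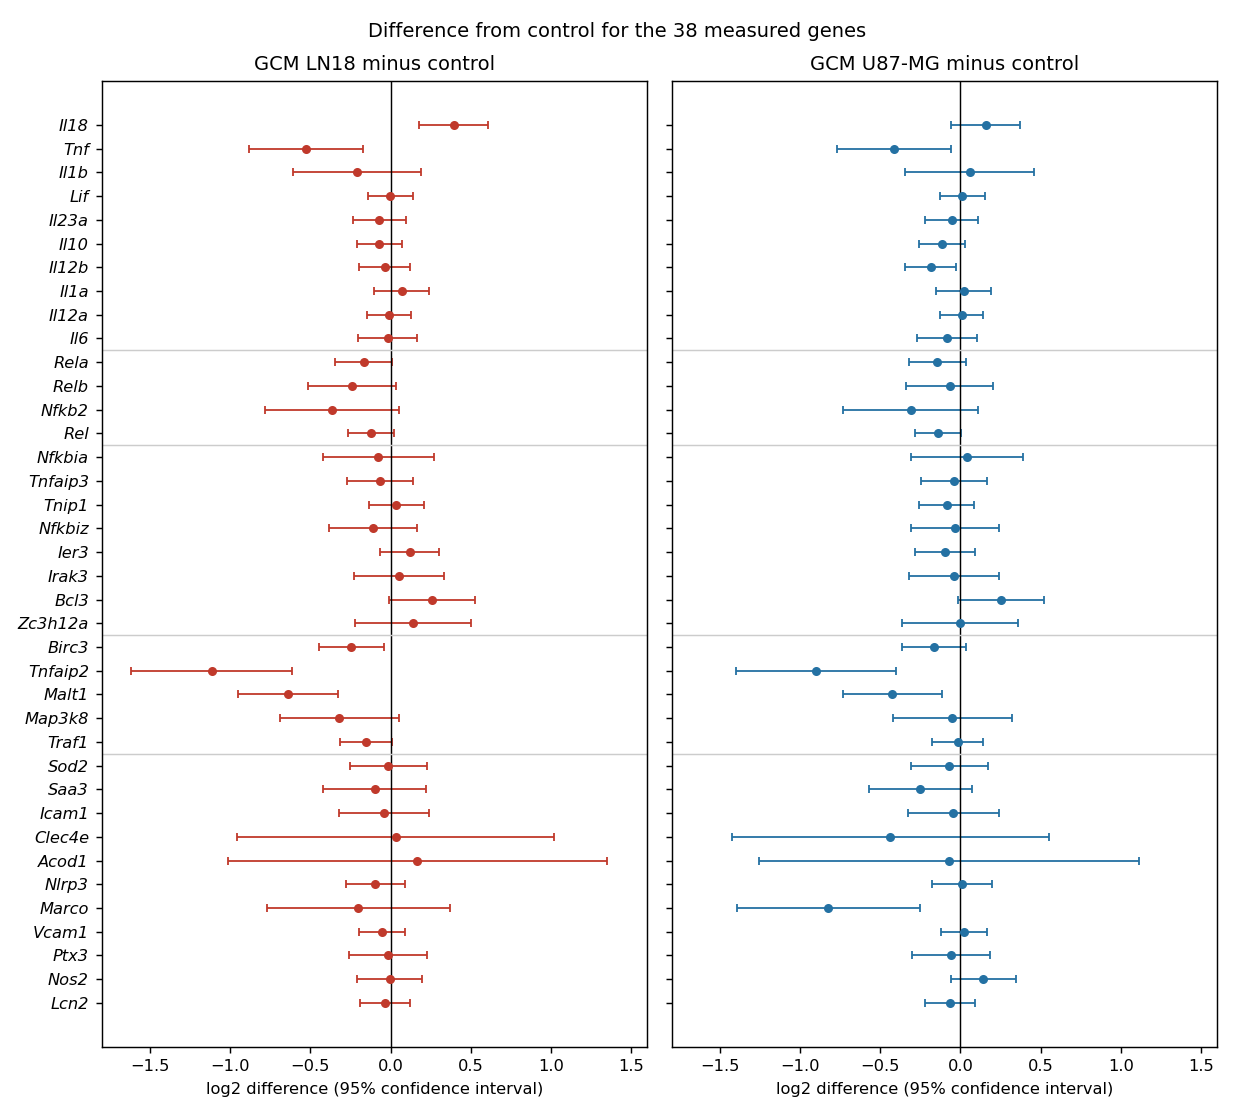
Log2 difference from control of each gene, ordered by role, for GCM LN18 and GCM U87-MG, with the 95% confidence interval from the model with the replicate block. Tnfaip2 has the lowest value in each medium (-1.11 and -0.90), the intervals of Acod1 and Clec4e are the widest, and both media share the control arrays.

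Tnfaip2, which encodes a TNF-induced protein known for its role in membrane nanotubes between cells, stood furthest below control. Its log2 signal was 6.52, 6.18 and 6.88 on the GCM LN18 arrays, 6.51, 7.09 and 6.62 on the GCM U87-MG arrays and 7.88, 7.64 and 7.41 on the control arrays. All 6 GCM arrays lay below all control arrays. The difference was -1.11 in GCM LN18 (standard error 0.22, 95% interval -1.61 to -0.61, 0.462-fold), with an adjusted p of 0.0650 from limma and 0.0160 without the block. In GCM U87-MG it was -0.90 (standard error 0.22, 95% interval -1.40 to -0.40), with an adjusted p of 0.256 and 0.0682 without the block. These were the lowest adjusted p of the set in each medium. Within the replicate numbers the difference was between -1.46 and -0.53 in GCM LN18 and between -1.36 and -0.55 with GCM U87-MG. Without GCM U87-MG replicate 2 the value in GCM LN18 passed the test (adjusted p = 0.0359), and leaving out any other array did not bring it past the threshold.

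Malt1, the paracaspase that links CARD proteins to the IκB kinases, had the second lowest difference of the set in GCM LN18, whereas in GCM U87-MG Marco and Clec4e lay between it and Tnfaip2. Its signal was 6.23, 6.46 and 6.66 with GCM LN18, 6.83, 6.54 and 6.62 with GCM U87-MG and 7.14, 7.21 and 6.91 in control, and again no GCM array reached a control array. It was lower by 0.64 in GCM LN18 (difference -0.64, standard error 0.13, adjusted p = 0.0825 from limma, 0.0203 without the block) and the difference was -0.42 in GCM U87-MG (adjusted p = 0.410). A pair of dimmer probe sets of Malt1 gave smaller differences of the same sign, -0.23 and -0.19 in GCM LN18 and -0.28 and -0.38 with GCM U87-MG. Birc3, a ubiquitin ligase that keeps TNF receptor signalling from ending in cell death, had 7.62, 7.54 and 7.73 with GCM LN18, 7.61, 7.80 and 7.73 with GCM U87-MG and 7.99, 7.88 and 7.76 in control. The GCM LN18 arrays lay just below the control arrays, and the GCM U87-MG arrays overlapped them (differences -0.24 and -0.16, adjusted p = 0.294 and 0.635). A dim second probe set of Birc3 had the opposite sign, at 0.03 and 0.11. Map3k8, the kinase Tpl2 that passes the signal on to ERK, differed by -0.32 and -0.05, and Traf1, a dim adaptor gene, by -0.15 and -0.02. All 5 signalling and survival genes had a difference below 0 in each medium, with medians of -0.32 and -0.16, and none was called with the block.

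Among the cytokines with a measurable signal, Tnf and Il18 lay on opposite sides of control, and neither passed the test. Tnf, the founding cytokine of the pathway, had 6.14, 6.42 and 6.62 with GCM LN18, 6.46, 6.55 and 6.50 with GCM U87-MG and 7.22, 6.85 and 6.70 in control. Every GCM array lay below every control array, although GCM LN18 replicate 3 and control replicate 3 were only 0.08 apart. The difference was -0.53 in GCM LN18 (standard error 0.15, adjusted p = 0.195 from limma) and -0.42 in GCM U87-MG (standard error 0.15, adjusted p = 0.475). It was largest within replicate number 1, at -1.07 and -0.76, and smallest within number 3, at -0.08 and -0.20. Without control replicate 1 the difference was -0.31 in GCM LN18 and -0.19 with GCM U87-MG, and without GCM LN18 replicate 1 it was -0.34 in that medium.

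Il18, whose product is stored as a precursor and released after cleavage by caspase-1, had 6.92, 7.06 and 7.06 with GCM LN18, 6.68, 6.81 and 6.83 with GCM U87-MG and 6.80, 6.53 and 6.52 in control. The GCM LN18 arrays lay above all controls and above all GCM U87-MG arrays, and the GCM U87-MG arrays overlapped control replicate 1. The difference from control was 0.39 in GCM LN18 (standard error 0.09, 95% interval 0.18 to 0.61, adjusted p = 0.111 from limma, 0.0255 without the block) and 0.16 in GCM U87-MG (adjusted p = 0.678). Without control replicate 1 it passed the test in GCM LN18 (adjusted p = 0.0208), and so it did with array weights (adjusted p = 0.0362). In GCM U87-MG the difference was 0.29 without control replicate 1, 0.096 without control replicate 2 and 0.082 without control replicate 3. Il1b, which encodes the precursor of IL-1β, lay near the median gene and its groups overlapped, with 4.01, 4.26 and 4.44 with GCM LN18, 4.38, 4.70 and 4.44 with GCM U87-MG and 4.80, 4.23 and 4.31 in control. Its differences were -0.21 and 0.06 (adjusted p = 0.710 and 0.950 from limma). The 7 dim cytokines had differences between -0.07 and 0.07 in GCM LN18 and between -0.19 and 0.02 with GCM U87-MG. The lowest of these was that of Il12b, whose subunit is shared by IL-12 and IL-23, with an unadjusted p under 0.05 in GCM U87-MG (-0.19, adjusted p = 0.475) and signals of 2.31 to 2.62 on all arrays.

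**Figure D3:**
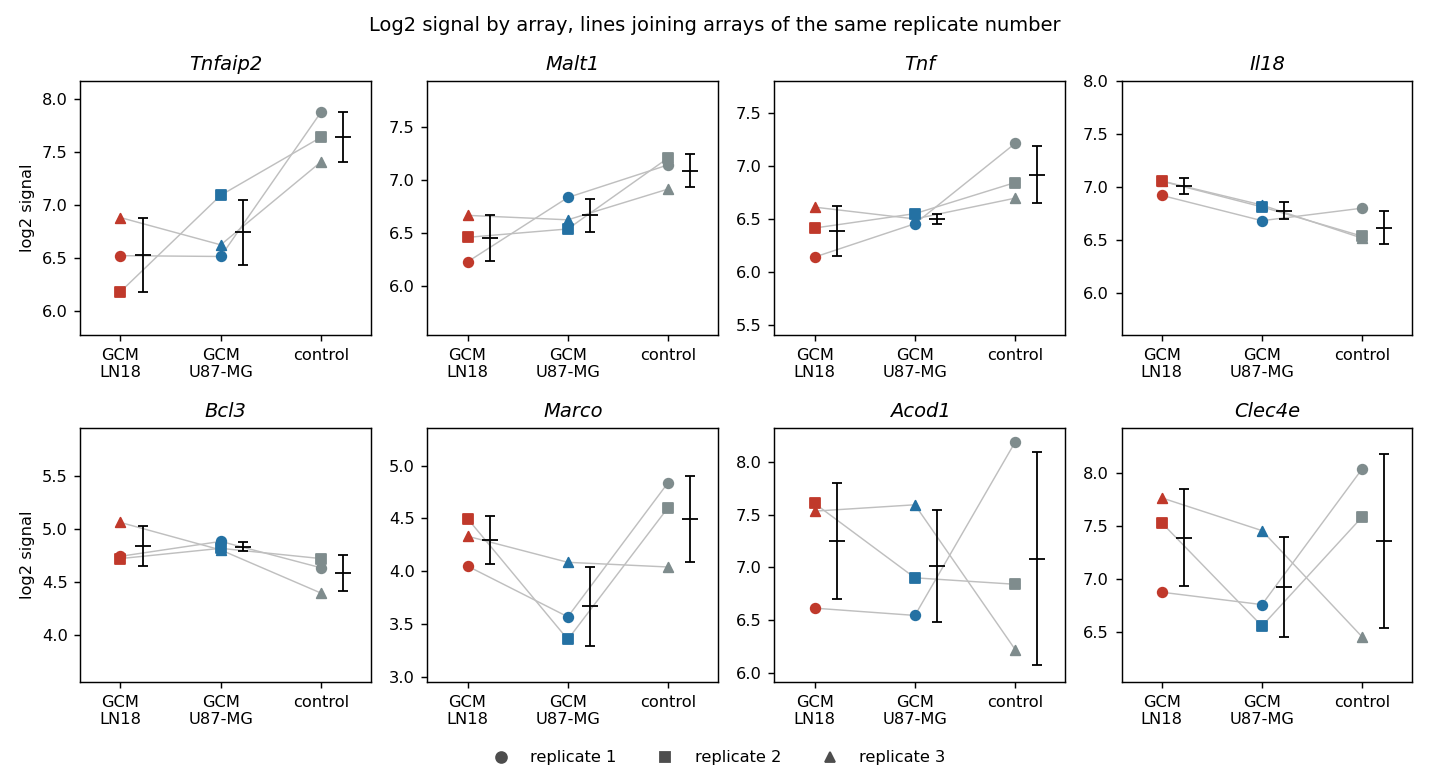
Log2 signal of selected genes on each array, with GCM LN18, GCM U87-MG and control from left to right, each array as a point, lines joining arrays of 1 replicate number and the mean ± SD (n = 3 per group) as a bar. For Tnfaip2, Malt1 and Tnf all GCM points lie below the control points, for Il18 the GCM LN18 points lie above them, and for Acod1 and Clec4e the points of all groups overlap.

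All 4 measured NF-κB subunits had a difference below 0 in each medium (medians -0.20 and -0.14), and none passed the test. Within replicate number 2 of GCM U87-MG only 1 of the 4 was below 0. Rela, the subunit with the main activating domain, had 8.72, 8.72 and 8.76 with GCM LN18, 8.70, 8.88 and 8.69 with GCM U87-MG and 8.97, 8.79 and 8.94 in control. Its differences were -0.17 and -0.14 (standard error 0.08 each, adjusted p = 0.445 and 0.641 from limma), and 1 GCM U87-MG array lay among the controls. Nfkb2, the precursor of p52 in the non-canonical pathway, had 4.99, 5.03 and 5.38 with GCM LN18, 5.03, 5.49 and 5.05 with GCM U87-MG and 5.81, 5.30 and 5.39 in control, with overlapping groups and differences of -0.37 and -0.31 (adjusted p = 0.487 and 0.672). In GCM LN18 the difference was -0.13 without control replicate 1 and -0.55 with GCM LN18 replicate 3 left out. Rel, the c-Rel subunit, differed by -0.12 and -0.14 with all GCM arrays (4.84 to 4.99) below all controls (5.03 to 5.07), and Relb, the partner of p52, by -0.24 and -0.07.

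Of the IκB proteins and feedback inhibitors none was called, and the median differences over 8 genes were 0.05 (GCM LN18) and -0.04 (GCM U87-MG). Within replicate numbers 1, 2 and 3 these medians were -0.27, 0.01 and 0.16 in GCM LN18. With GCM U87-MG they were -0.28, 0.10 and 0.10. Nfkbia, which encodes IκBα and carries the κB match printed above, had 9.10, 9.24 and 9.31 with GCM LN18, 9.22, 9.59 and 9.19 with GCM U87-MG and 9.52, 9.02 and 9.34 in control. The groups overlapped, and the differences of -0.08 (95% interval -0.42 to 0.27) and 0.04 (-0.31 to 0.39) were smaller than the spread between arrays. Bcl3, an atypical IκB that binds p50 and p52 in the nucleus, had 4.74, 4.72 and 5.06 with GCM LN18, 4.88, 4.82 and 4.80 with GCM U87-MG and 4.63, 4.72 and 4.39 in control. It was the only gene of this role above 0.20 in either medium (0.26 and 0.25, standard error 0.12 each, adjusted p = 0.428 and 0.581 from limma), and control replicate 2 reached the lowest GCM LN18 array. Without control replicate 3 the differences were 0.12 and 0.11, and without GCM LN18 replicate 3 that of GCM LN18 was 0.093. Ier3, an early response gene tied to cell survival, had 6.44, 6.40 and 6.53 with GCM LN18, 6.36, 6.23 and 6.14 with GCM U87-MG and 6.24, 6.41 and 6.37 in control (differences 0.12 and -0.10, adjusted p = 0.633 and 0.772), and its difference in GCM LN18 was 0.043 without control replicate 1 and 0.064 with GCM LN18 replicate 3 left out. Tnfaip3, which encodes the ubiquitin-editing enzyme A20, differed by -0.07 and -0.04, its binding partner gene Tnip1 by 0.04 and -0.09, Nfkbiz (IκBζ, a nuclear co-activator) by -0.11 and -0.04, Irak3 (an IRAK that dampens Toll-like receptor signalling) by 0.05 and -0.04, and Zc3h12a (the RNase Regnase-1) by 0.14 and -0.00. The 3 probe sets of Nfkbiz disagreed in sign, at -0.11, 0.17 and -0.16 in GCM LN18.

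Of the adhesion, effector and acute phase genes none was called, and the medians over 11 genes were -0.03 and -0.06. Sod2, the mitochondrial superoxide dismutase, had 9.57, 9.66 and 9.75 with GCM LN18, 9.52, 9.60 and 9.71 with GCM U87-MG and 9.85, 9.69 and 9.49 in control. The GCM arrays all lay within the range of the control arrays, and the differences were -0.01 and -0.07 (95% intervals -0.25 to 0.22 and -0.31 to 0.17). Icam1, the leukocyte adhesion molecule, differed by -0.04 in each medium, Nlrp3, the inflammasome sensor, by -0.09 and 0.01, and Saa3, an acute phase serum amyloid, by -0.10 and -0.25. The dim genes Vcam1, Nos2, Lcn2 and Ptx3 differed by -0.06 to 0.14 in either medium.

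Acod1 and Clec4e had the widest spread. Acod1, the enzyme that makes itaconate, had 6.62, 7.61 and 7.53 with GCM LN18, 6.55, 6.90 and 7.59 with GCM U87-MG and 8.19, 6.84 and 6.22 in control. Control replicate 1 was the highest of the 9 arrays and control replicate 3 the lowest. The difference was 0.17 in GCM LN18 (95% interval -1.02 to 1.35) and -0.07 in GCM U87-MG (95% interval -1.25 to 1.11), and both intervals reach past 1 on the log2 scale in either direction. Clec4e, the C-type lectin receptor Mincle, had 6.88, 7.53 and 7.77 with GCM LN18, 6.76, 6.56 and 7.46 with GCM U87-MG and 8.04, 7.59 and 6.45 in control, the same order of the control arrays. Its differences were 0.03 and -0.44 (adjusted p = 0.988 and 0.815 from limma), and a dimmer probe set gave -0.46 and -0.74.

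Marco, a scavenger receptor for bacteria that lies below the median gene, was singled out after its values were seen. It had 4.05, 4.50 and 4.33 with GCM LN18, 3.57, 3.36 and 4.09 with GCM U87-MG and 4.84, 4.60 and 4.04 in control. The difference was -0.20 in GCM LN18 (adjusted p = 0.815 from limma) and -0.82 in GCM U87-MG (standard error 0.25, 95% interval -1.39 to -0.25, adjusted p = 0.383), and within replicate number 3 the GCM U87-MG array was 0.04 above control.

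The size of the differences depended on the replicate number. Within number 1 the median of the 38 genes was -0.27 in each medium, with 30 genes below 0 in GCM LN18 and 32 with GCM U87-MG. Within number 2 it was -0.04 and -0.03, with 25 and 20 below 0, and within number 3 it was 0.04 and 0.02, with 16 and 19 below 0. The summed linear signal of the set was 4151, 4569 and 4944 with GCM LN18, 4269, 4698 and 4566 with GCM U87-MG and 5687, 4715 and 4461 in control. Control replicate 1 had the highest sum of all arrays, and the GCM LN18 and GCM U87-MG arrays of number 1 had the lowest. As the replicate numbers have the same mean, a high control array and low GCM arrays within a number cannot be told apart. Leaving out control replicate 1 removes the comparison with control within number 1. The median difference was then 0.02 in GCM LN18 and 0.01 with GCM U87-MG, above 0 in both. Acod1 and Clec4e showed the widest change between the numbers. Acod1 differed by -1.57, 0.76 and 1.31 within numbers 1, 2 and 3 in GCM LN18 and by -1.64, 0.06 and 1.37 in GCM U87-MG, and Clec4e by -1.17, -0.06 and 1.31 and by -1.28, -1.03 and 1.01. Tnfaip2, Malt1, Tnf, Birc3, Rel and the dim gene Il10 were below 0 within all 3 numbers in each medium. In all, 9 genes in GCM LN18 and 8 with GCM U87-MG were below 0 within all 3 numbers (background 16.7% and 13.3%), and 1 and 2 were above 0 (background 14.7% and 11.2%).

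**Figure D4:**
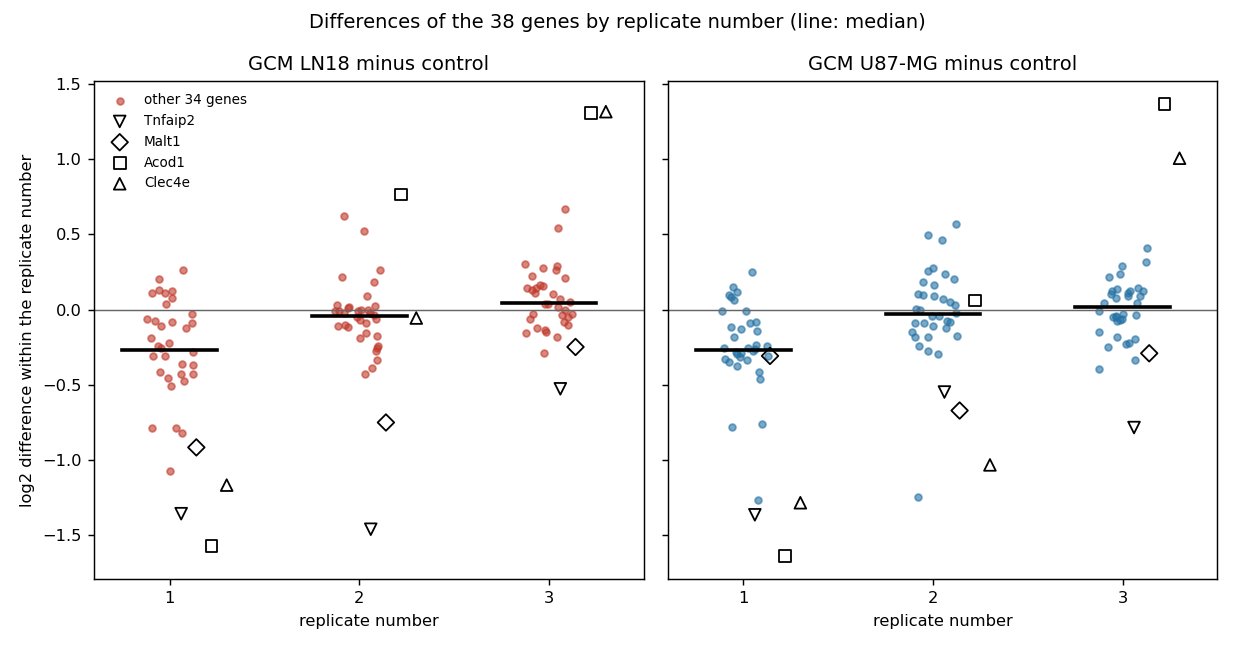
Log2 difference from control of the 38 genes within each replicate number, for GCM LN18 (left) and GCM U87-MG (right), with the median as a line and 4 genes marked. The median is -0.27 in both media within number 1 and lies within 0.05 of 0 within numbers 2 and 3, Tnfaip2 and Malt1 are below 0 throughout, and Acod1 and Clec4e lie on both sides of 0.

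Between the media no gene of the set differed at an adjusted p under 0.05 (0 of 38 in each direction by limma, also without the block, where 1 of 17097 genes or 0.00585% was called higher in GCM LN18). At an unadjusted p under 0.05, 3 genes were higher in GCM LN18 than in GCM U87-MG, Ier3, Il18 and Marco, and 0 were lower, with backgrounds of 2.59% and 2.47%. Ier3 was higher by 0.22 (95% interval 0.03 to 0.40), Il18 by 0.24 (95% interval 0.02 to 0.45) and Marco by 0.62 (95% interval 0.05 to 1.19), each with an adjusted p of 0.926. The difference of Il18 between the media was 0.24, 0.24 and 0.23 within the 3 replicate numbers. For Tnfaip2 and Malt1 the media differed by -0.22 each, with 95% intervals of -0.72 to 0.28 and -0.53 to 0.095. All arrays of GCM LN18 lay above those of GCM U87-MG for 4 genes, Ier3, Il12b, Il18 and Tnip1 (background 8.92%), and below them for Traf1 and Vcam1 (background 8.48%).

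The remaining pathway was read from 3 further lists. Of the receptors, adaptors and kinases upstream of NF-κB and the other IκB genes, 33 of 37 listed were measured, with median differences of -0.03 in GCM LN18 and -0.02 with GCM U87-MG. In GCM LN18 1 was called higher and 0 lower, and in GCM U87-MG 0 were called in either direction (2 and 0 higher without the block, and 0 lower in both media; at an unadjusted p under 0.05, GCM LN18 had 2 higher and 3 lower, and GCM U87-MG 3 higher and 1 lower). Over all genes the shares were 0.538% higher and 0.339% lower with the block in GCM LN18, 2.59% and 2.64% without it, and at an unadjusted p under 0.05 5.68% and 6.55% in GCM LN18 and 4.36% and 4.76% with GCM U87-MG, so that the unadjusted counts were near the background. The gene called was Il1rap, the shared co-receptor chain of the IL-1 family receptors, with 4.93, 5.06 and 4.97 with GCM LN18, 4.86, 4.70 and 4.80 with GCM U87-MG and 4.58, 4.61 and 4.59 in control. It rose by 0.39 in GCM LN18 (adjusted p = 0.0438 from limma), and its difference in GCM U87-MG was 0.19 (adjusted p = 0.437). The call was lost without any 1 of 8 of the 9 arrays (it held without GCM U87-MG replicate 2), with only the groups compared (adjusted p = 0.0750) and with the mean of its probe sets (0.12, adjusted p = 0.351). Map3k14, the kinase NIK that starts the processing of p52, was the one added without the block, with 5.24, 5.08 and 4.99 with GCM LN18, 4.96, 4.98 and 5.20 with GCM U87-MG and 4.61, 4.75 and 4.63 in control. No GCM array reached down to a control array, and the differences were 0.44 (adjusted p = 0.0837, 0.0179 without the block) and 0.39 (adjusted p = 0.261).

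Of the other inhibitors of inflammatory signalling, 20 of 22 listed were measured, with medians of -0.04 in GCM LN18 and -0.03 with GCM U87-MG. In GCM LN18 0 were called higher and 1 lower (3 lower without the block; 0 higher and 3 lower at an unadjusted p under 0.05), and in GCM U87-MG 0 in either direction (1 lower without the block; 0 higher and 1 lower at an unadjusted p under 0.05). The share of all genes called lower in GCM LN18 was 0.339% with the block, 2.64% without it and 6.55% at an unadjusted p under 0.05, and in GCM U87-MG it was 0.708% without the block and 4.76% unadjusted. The gene called was Il1rn, the secreted antagonist of the IL-1 receptor, with 5.39, 5.27 and 5.31 with GCM LN18, 5.23, 5.41 and 5.20 with GCM U87-MG and 5.78, 5.72 and 5.89 in control. All 6 GCM arrays lay well below the controls. In limma the log2 difference of GCM LN18 from control was -0.47 (adjusted p = 0.0458), and that of GCM U87-MG was -0.51 (adjusted p = 0.105, 0.0130 without the block). This call too held without GCM U87-MG replicate 2 and was lost without any of the other 8 arrays (adjusted p up to 0.275), with only the groups compared (0.0615) and with the mean of its probe sets (-0.25, adjusted p = 0.255). Zc3h12c, a relative of Regnase-1, had 6.25, 6.21 and 6.20 with GCM LN18, 6.36, 6.56 and 6.42 with GCM U87-MG and 6.61, 6.45 and 6.60 in control (differences -0.33 and -0.11, adjusted p = 0.0991 and 0.719, 0.0183 without the block in GCM LN18).

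Of other NF-κB target genes, among them chemokines, proteases and survival genes, 29 of 32 listed were measured and 0 were called in either direction in either medium by limma. At an unadjusted p under 0.05, GCM LN18 had 3 higher and 12 lower, and GCM U87-MG had 1 higher and 7 lower, where 5.68% and 6.55% of all genes passed in the one medium and 4.36% and 4.76% in the other. Without the block 1 was called higher and 7 lower in GCM LN18, and 0 higher and 1 lower in GCM U87-MG (background 2.59% and 2.64%, and 0.807% and 0.708%). The list's medians were -0.16 and -0.10. The 1 gene called without the block in GCM U87-MG was the chemokine gene Ccl3, named for that count, with differences of -0.42 and -0.40 (adjusted p = 0.0825 and 0.220 from limma, 0.0163 and 0.0451 without the block). Cxcl2, a neutrophil chemokine, had 5.72, 5.81 and 6.51 with GCM LN18, 6.31, 6.61 and 6.48 with GCM U87-MG and 7.76, 7.37 and 6.80 in control, with all GCM arrays below all controls (differences -1.30 and -0.84, adjusted p = 0.0825 and 0.419 from limma, 0.0233 and 0.146 without the block). Ptgs2, the inducible cyclooxygenase, had 4.06, 4.55 and 4.46 with GCM LN18, 5.40, 5.44 and 5.01 with GCM U87-MG and 5.51, 4.99 and 5.50 in control. The GCM LN18 arrays lay below all others, whereas the GCM U87-MG arrays lay among the controls (differences -0.98 and -0.05, adjusted p = 0.0674 and 0.961, 0.0168 without the block in GCM LN18, and 0.917 between the media). Olr1, a receptor for oxidized lipoprotein, was the gene called higher without the block in GCM LN18 (0.66, adjusted p = 0.148, 0.0464 without the block), at a dim mean signal of 2.65.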

How the data were processed

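RNA of 9 samples of primary mouse microglia was measured on Affymetrix MG-430 PM strip arrays, 3 per group, and groups were taken from the sample titles. The authors deposited normalized log2 signals for 45141 probe sets. The submitters' processing notes name limma, and the methods of background correction and normalization are not given in the sources used here. Left out were 104 control probe sets, 551 annotated to several genes and 15588 without a symbol in the annotation given, and symbols were updated by gene identifier. The probe set with the highest mean over the 9 arrays stood for a gene. Group differences on all 9 arrays were estimated by limma 3.58.1 under R 4.3.3, with the replicate number as a block (4 residual degrees of freedom). The block rests on the equal means of the replicate numbers, since the labels do not state that a number marks 1 culture in all groups. The Benjamini-Hochberg adjustment was made over 17097 genes. The fit was run on simulated data with independent noise and equal replicate means, which does not show how it performs on these arrays. Arrays have no read depth, and their number limits the precision.

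The genes and lists were chosen with earlier results of these data known. Values on every array are given for genes past the test with or without the block, for the 4 highest and 4 lowest differences in each medium among genes at or above the median gene, for the gene with the highest signal in each role, and for at most 2 higher and 2 lower genes per further list. Genes named by counts at an unadjusted p or by position of the arrays were chosen after their values were seen. Alternatives were a fit without the block, only the groups compared, array weights, trend and robust estimation, a filter at the median level, the mean of a gene's probe sets, other normalizations and each array left out. Promoter windows come from RefSeq.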

Additional observations from a re-analysis of the deposited data

How the results depend on the processing

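With the replicate block 150 genes were called in GCM LN18, 8 in GCM U87-MG, 139 in the mean of both media and 0 between the media. Without the replicate block these were 894, 259, 823 and 1, and 3 genes of the set were called in GCM LN18 and 2 in the mean of both. With only the groups compared 89 genes were called in GCM LN18 and 0 with GCM U87-MG, with array weights 265 (1 of the set, Il18) and 4. In GCM U87-MG, trend and robust estimation gave 21, the filter at the median level 3 and the mean of the probe sets 5. Leaving out each array in turn gave 3 to 179 genes in GCM LN18 (3 without GCM LN18 replicate 2), 0 to 10 in GCM U87-MG (0 without GCM U87-MG replicate 1 or 3) and 10 to 154 in the mean of both (10 without GCM U87-MG replicate 3). It gave 0 to 1 genes of the set in GCM LN18 and in the mean of both, and the set's median lay between -0.13 and 0.02 with GCM LN18, -0.11 and 0.01 with GCM U87-MG, -0.12 and -0.01 in the mean of both and -0.04 and 0.04 between the media. Acod1 ranged from -0.48 to 0.99 with GCM LN18, and with GCM U87-MG Il1b from -0.10 to 0.32, Nfkbia from -0.16 to 0.21 and Clec4e from -1.12 to 0.074. The cause of these changes was not tested. The 3 arrays per group and the dim signal of 14 genes limit what could be detected.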
